A study of Arabidopsis thaliana with 12 samples.

Results

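The genes described here are 34 Arabidopsis thaliana loci for enzymes of tetrapyrrole metabolism and, with GUN4, an activator of such an enzyme. This pathway makes and breaks down chlorophyll and heme. They were listed by locus identifier for their role in chlorophyll and heme metabolism, with earlier results of these data known and with no measured value in the rule, and all 34 are among the 33607 genes listed in each of the 4 expression tables of the series. By role, 5 of them make 5-aminolevulinic acid, 8 form the common trunk up to protoporphyrin, 13 belong to the chlorophyll branch, 4 to the heme and bilin branch and 4 to chlorophyll breakdown.

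All plants were of the Columbia-0 accession. In the IMA1 OE plants a 35S promoter (35spro), which is active in most plant tissues, drove the open reading frame of IMA1 (AT1G47400), a small peptide of the plant iron deficiency response, and the series title names line #7-4. In the reference plants the same promoter drove the fluorescent protein EYFP (35spro:EYFP, EYFP OE), so both genotypes carry a transgene, each as 1 named line. Seedlings grew for 10 days on complete ES medium with 1.5% sucrose, 25 to a plate, in constant light (50 µmol per square metre and second), and were sampled 72 h after transfer. The 6 groups were IMA1 OE roots on Fe-deficient medium (Fe left out and the chelator FerroZine added at 100 µM), IMA1 OE roots on full medium, EYFP OE roots on full medium and the same groups of rosettes, with 2 libraries each and 12 in all. EYFP OE plants on Fe-deficient medium are not analysed here, so a comparison with IMA1 OE on Fe-deficient medium changes the line and the medium together. Nothing in the labels says that replicates came from separate cultures, so each p-value measures the spread between these libraries, which may be technical.

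Plants build every tetrapyrrole from 5-aminolevulinic acid, which plastids make from glutamate, with glutamyl-tRNA reductase as the controlling step. At protoporphyrin IX the pathway forks: Mg chelatase sends the molecule towards chlorophyll, and ferrochelatase inserts Fe to make heme, from which heme oxygenase and a further reductase make the chromophore of phytochrome. Fe is needed on both sides, as the substrate of ferrochelatase and as a cofactor of the cyclase subunit CRD1 and of the oxygenases CAO and PAO, and yellowing of young leaves is the classic sign of Fe shortage.

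Expression is given as the authors' normalized values, which are scaled for gene length and nearly equalised in distribution between the libraries of a table. They carry no read depth. Changes are IMA1 OE minus EYFP OE on the log2(value + 1) scale, which understates the change of genes with low values. They were tested with limma over all genes that reached 1 in 2 or more of the 4 libraries, with Benjamini-Hochberg adjustment and a threshold of 0.05. A group is said to lie above or below the other when both of its libraries do.

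IMA1 transcripts reached 322.23 and 331.41 in Fe-deficient IMA1 OE roots, against 6.49 and 1.87 in EYFP OE roots. The other 3 comparisons gave log2 changes of 6.14 to 6.35 for IMA1. The row of the EYFP construct had at most 0.54 in IMA1 OE libraries and 258.03 to 1803.37 in EYFP OE libraries. Both transgenes thus matched the labels. IMA1 passed the adjusted threshold only in roots on Fe-deficient medium (limma adjusted p 0.00766). Its limma adjusted p was 0.0764 in roots and 0.150 in rosettes on full medium, and 0.4675 in rosettes on Fe-deficient medium. A gene that does not pass the threshold may therefore still differ. The IMA1 OE columns of the rosette table for Fe-deficient medium are headed as grown with Fe, and they were taken as the Fe-deficient libraries because the descriptions of those samples name that table. Their medium therefore rests on that description. Of 5 root markers, 4 were under 1 in every rosette library. All 5 markers of green tissue were detected in roots, where their sum spanned 108.9 to 248.7, against 20720 to 24680 in rosette libraries.

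None of the 34 genes passed the adjusted threshold in any comparison. Each comparison tested 32 of them, since PORA and CLH1 in roots and PORA and HEMA3 in rosettes were below the minimum. Beside that 0, limma called 0.920% of all tested genes in IMA1 OE roots on Fe-deficient medium, 0.0355% in IMA1 OE roots on full medium, 0.00535% in IMA1 OE rosettes on Fe-deficient medium and 0.0107% in IMA1 OE rosettes on full medium. At an unadjusted p under 0.05 the numbers of these genes were 8, 1, 1 and 1 in the same order, against backgrounds of 9.14%, 4.22%, 5.17% and 5.43% of all genes. By the authors' deposited tables, whose p-values come from a Z-test, 0, 0, 2 and 1 of the 34 had a p under 0.05, where the share of all genes was 1.01%, 0.446%, 0.949% and 1.18%. Those were CHLH and CRD1 in rosettes on Fe-deficient medium, both with a p of 0.04 in the authors' deposited table, and HEMA1 in rosettes on full medium, with 0.01 there. In the limma fit the libraries of the groups overlapped for each of these 3 genes.

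**Figure D1:**
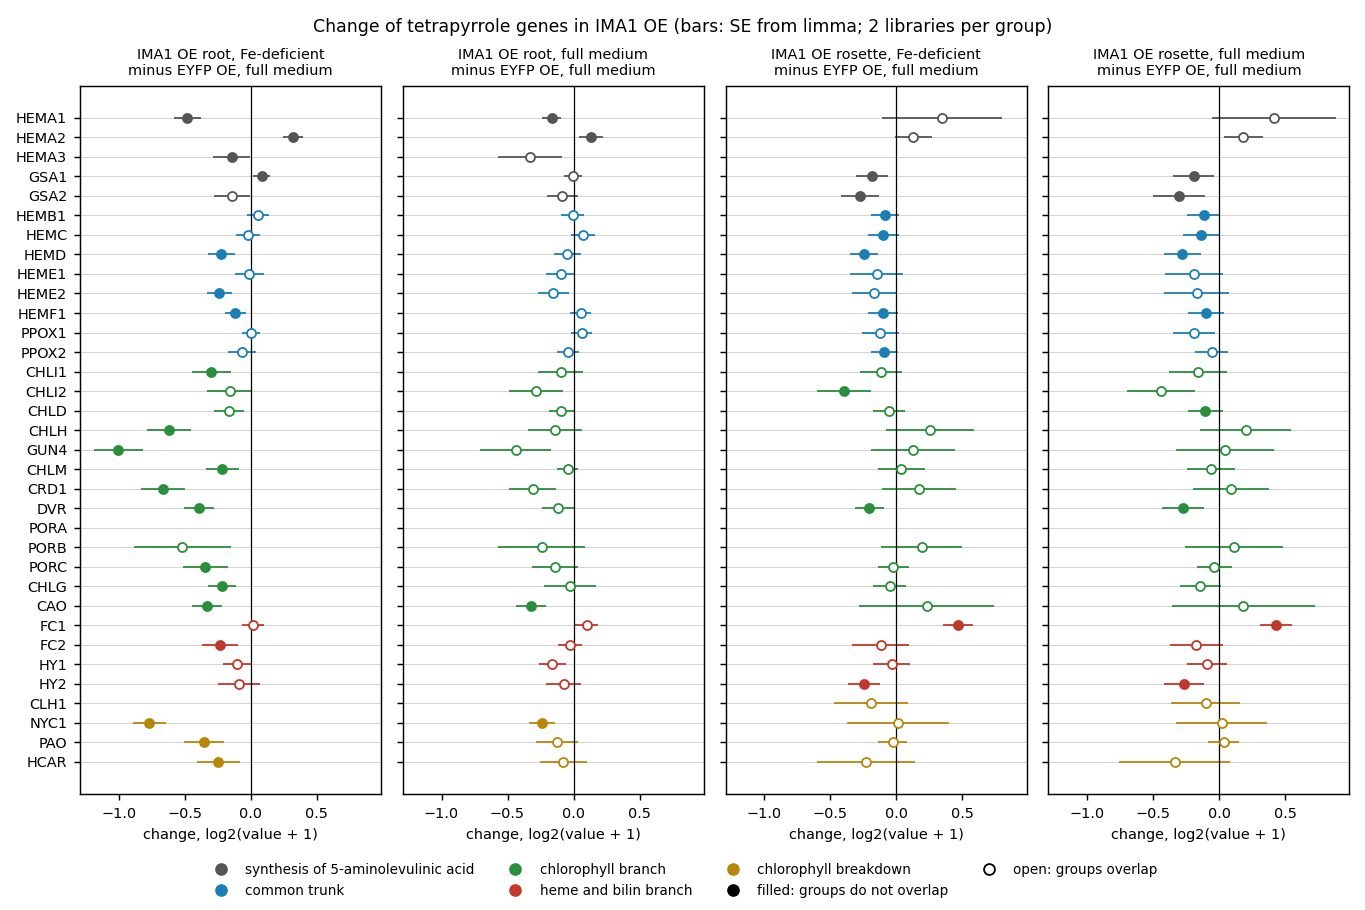
Change of each of the 34 genes on the log2(value + 1) scale, IMA1 OE minus EYFP OE, with the standard error from limma, in 4 comparisons of 2 against 2 libraries; colours give the role, and filled points mark groups that do not overlap. In every comparison EYFP OE is on full medium. For IMA1 OE roots on Fe-deficient medium all 12 tested genes of the chlorophyll branch lie left of 0. In rosettes FC1 is the only filled point to the right of 0.

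For most of the tested genes IMA1 OE roots on Fe-deficient medium had a lower mean than EYFP OE roots, which were on full medium. Line and medium differ together here, and none of the genes passed the adjusted threshold. Of the 32 genes tested, 27 had a negative change and 5 a positive one, with a median of -0.21 against -0.02 over all tested genes, of which 55.2% were negative. IMA1 OE lay below EYFP OE for 18 of the 32 and above for 2, where the backgrounds over all tested genes were 21.6% below and 17.8% above. The median was -0.10 without IMA1 OE replicate 1 and -0.14 without EYFP OE replicate 2. The values of the 7 genes with a negative change and an unadjusted p under 0.05 (background 4.09%), GUN4, NYC1, HEMA1, CRD1, CHLH, DVR and CAO, are given below, together with HEMA2, the only gene with such a p and a positive change (background 5.05%). Of these 8, NYC1, CRD1, CHLH, DVR and CAO were picked after their values were seen.

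The stretches next to the gene starts of CAO, CRD1 and NYC1 are shown because these 3 of the 7 lower genes hold one of 3 short motifs in a stretch free of other annotated genes. The motifs are the G-box CACGTG, to which light-signalling factors such as HY5 and the PIF proteins bind, the evening element AAATATCT and the CCA1-binding site AAAAATCT, both known from clock-controlled genes. They were searched on both strands in the 250 bases before the gene start, in the TAIR10.1 assembly and RefSeq annotation, whose sequences are printed 5′ to 3′ on the strand of the gene, ending at the base before its start, with motif letters in capitals. CAO lies on the minus strand and its stretch is chr1:16851272-16851521. CRD1 lies on the plus strand and its stretch, chr3:21076316-21076504, is cut to 189 bases because another annotated gene covers the part further up. NYC1 lies on the minus strand with chr4:7687007-7687256.
CAO: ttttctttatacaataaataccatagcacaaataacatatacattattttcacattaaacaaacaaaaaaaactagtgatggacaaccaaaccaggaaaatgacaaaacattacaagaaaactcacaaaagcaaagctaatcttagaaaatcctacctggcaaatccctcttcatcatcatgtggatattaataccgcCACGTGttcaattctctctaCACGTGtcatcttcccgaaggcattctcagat
CRD1: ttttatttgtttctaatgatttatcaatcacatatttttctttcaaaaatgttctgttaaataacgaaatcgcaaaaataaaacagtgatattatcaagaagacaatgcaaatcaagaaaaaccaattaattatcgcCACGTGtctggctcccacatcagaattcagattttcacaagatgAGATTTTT
NYC1: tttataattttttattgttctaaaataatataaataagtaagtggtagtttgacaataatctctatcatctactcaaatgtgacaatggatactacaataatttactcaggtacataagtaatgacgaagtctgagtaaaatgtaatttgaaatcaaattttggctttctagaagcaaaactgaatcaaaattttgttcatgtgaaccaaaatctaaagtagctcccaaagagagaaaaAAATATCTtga
The G-box was present in 5 of the 34 windows, or 14.7%, against 6.49% of all 27443 windows of the same length. Those 5 were HEMD, CRD1, CAO with 2 copies, FC2 and HY2. The evening element was in 3, or 8.82%, against 4.79% of all windows, namely PORA, PORB and NYC1. The CCA1-binding site was in 4, or 11.8%, against 6.69%, namely HEMA2, GUN4, CRD1 and HY2. In CRD1 the last capitals are that site read on the other strand. The windows of HEMA1, CHLH and DVR held none of these letters. A match is a description of the letters only.

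At the entry of the pathway the glutamyl-tRNA reductase genes differed in direction. HEMA1 (AT1G58290, chr1:21623700-21626402 in TAIR10.1), the main reductase gene of green tissue, had 23.98 and 28.72 in Fe-deficient IMA1 OE roots, against 36.57 and 37.38 in EYFP OE roots. Both IMA1 OE libraries were lower, and the change was -0.48 (SE 0.10, limma adjusted p 0.193). HEMA2 (AT1G09940), the form known for its expression outside green tissue, had 14.31 and 14.50 in IMA1 OE, against 11.07 and 11.59 in EYFP OE. Both IMA1 OE libraries were higher, with a change of 0.32 (SE 0.08, limma adjusted p 0.260). HEMA3 (AT2G31250) stayed low, at 1.33 and 1.46 in IMA1 OE and 1.76 and 1.54 in EYFP OE. Of the summed HEMA values, HEMA2 made up 36.1% and 32.5% in Fe-deficient IMA1 OE roots, against 22.4% and 22.9% in EYFP OE roots. On full medium its share was 29.2% and 25.2% in IMA1 OE roots, against 22.6% and 23.1% in EYFP OE roots. The HEMA2 share was thus above both EYFP OE libraries in all 4 IMA1 OE root libraries. The next enzyme, glutamate-1-semialdehyde aminotransferase, has a pair of genes: GSA1 had 34.08 and 35.32 in Fe-deficient IMA1 OE roots, against 32.91 and 32.52 in EYFP OE roots, a change of 0.08 (SE 0.06). GSA2 overlapped between the groups.

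The common trunk, which turns 5-aminolevulinic acid into protoporphyrin IX, differed less. Its 8 genes had changes of -0.24 to 0.06 in Fe-deficient IMA1 OE roots, with a median of -0.04. For 3 of them, HEMD, HEME2 and HEMF1, IMA1 OE lay below EYFP OE on full medium (background 21.6%). HEME2 (uroporphyrinogen decarboxylase) had 15.61 and 17.71 in IMA1 OE, against 18.92 and 20.70 in EYFP OE. HEME1, a second gene for that enzyme, had 13.14 in both IMA1 OE libraries, against 14.51 and 12.07 in EYFP OE. The protoporphyrinogen oxidase genes were close in both lines, with a change of 0.00 for PPOX1 and -0.07 for PPOX2, each within its standard error.

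In the chlorophyll branch 12 of 12 tested genes had a negative change in Fe-deficient IMA1 OE roots, with a median of -0.34. The background over all tested genes was 55.2% negative. IMA1 OE lay below EYFP OE, which was on full medium, for 9 of the 12 (background 21.6%). The most negative change was at a step around Mg insertion. GUN4 (AT3G59400, chr3:21948501-21949796 in TAIR10.1), which binds porphyrins and activates Mg chelatase, had 2.10 and 3.05 in IMA1 OE roots, against 6.93 and 5.35 in EYFP OE roots. Both IMA1 OE libraries were low, with a change of -1.0 (SE 0.19, limma adjusted p 0.150). CHLH (AT5G13630), the porphyrin-binding subunit of Mg chelatase, had 11.82 and 16.85 in IMA1 OE, against 23.17 and 21.37 in EYFP OE, a change of -0.62 (SE 0.17, limma adjusted p 0.333) that was -0.38 without IMA1 OE replicate 1. The motor subunits of the same enzyme had smaller differences. CHLI1 had 14.62 and 18.87 in IMA1 OE, against 18.88 and 22.60 in EYFP OE, a change of -0.30 (SE 0.15). CHLI2 and CHLD overlapped between the groups, with changes of -0.16 for each. CHLI1 made up 86.4% and 85.5% of the CHLI sum in IMA1 OE, against 86.7% in both EYFP OE libraries.

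Further down the branch, CRD1 (AT3G56940), the catalytic subunit of the cyclase that closes the isocyclic ring, had 20.96 and 29.38 in Fe-deficient IMA1 OE roots, against 37.76 and 42.06 in EYFP OE roots. The groups did not overlap, and the change was -0.66 (SE 0.17, limma adjusted p 0.286), or -0.43 without IMA1 OE replicate 1. DVR (AT5G18660), the divinyl reductase, had 3.15 and 3.44 in IMA1 OE, against 4.51 and 4.75 in EYFP OE, a change of -0.39 (SE 0.11, limma adjusted p 0.357). CAO (AT1G44446), which makes chlorophyll b, had 3.81 and 4.35 in IMA1 OE, against 5.55 and 5.22 in EYFP OE, a change of -0.33 (SE 0.11, limma adjusted p 0.457). Of the protochlorophyllide reductases, the light-dependent step, PORB had 18.99 and 35.60 in IMA1 OE, against 28.73 and 49.49 in EYFP OE. Replicate 2 was higher in both lines and the groups overlapped, with a change of -0.52 (SE 0.37, limma adjusted p 0.766). PORC had 2.95 and 3.21 in IMA1 OE, against 3.48 and 4.97 in EYFP OE, a change of -0.34 (SE 0.17). PORA, the form of dark-grown seedlings, was between 0.01 and 0.08 in every root library. The methyltransferase gene CHLM and the chlorophyll synthase gene CHLG also lay below EYFP OE, each with a change of -0.21. In the annotation GUN4, CRD1 and CAO overlap genes on the opposite strand, and 16 of the 34 overlap some other gene, 5 of them one on the same strand. Whether the counting used the strand is not given in the sources used here, so reads of such neighbours cannot be told apart from their own.

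**Figure D2:**
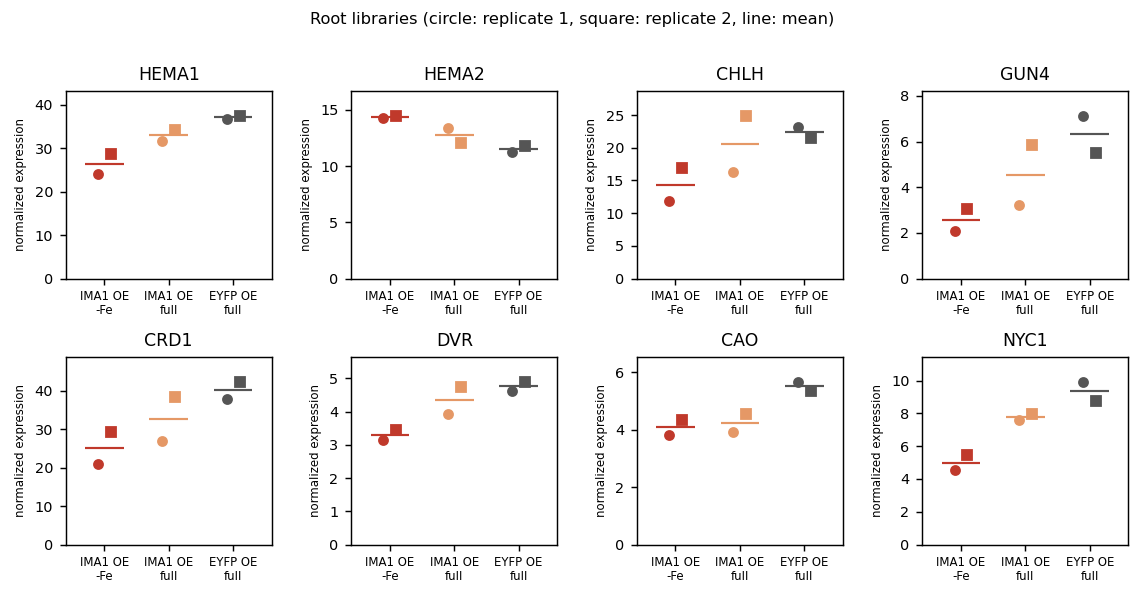
Normalized expression of the 8 genes with an unadjusted p under 0.05 in roots on Fe-deficient medium, in every root library; circles are replicate 1, squares replicate 2 and lines the group means. IMA1 OE on Fe-deficient medium comes from another table than the other groups, which is normalized separately, and the EYFP OE points are those of the full-medium table. GUN4 is at 2.10 and 3.05 in IMA1 OE on Fe-deficient medium, and HEMA2 is the only panel in which that group is highest.

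The heme and bilin branch showed little difference in roots. FC1 (AT5G26030), the ferrochelatase gene of most tissues, had 68.34 and 61.91 in Fe-deficient IMA1 OE roots, against 67.66 and 61.01 in EYFP OE roots, a change of 0.02 (SE 0.08). FC2, the ferrochelatase gene linked to green tissue, had 6.04 and 7.91 in IMA1 OE, against 8.24 and 8.36 in EYFP OE, a change of -0.23 (SE 0.14). FC1 made up 91.9% and 88.7% of the FC sum in IMA1 OE, against 89.1% and 87.9% in EYFP OE. The heme oxygenase gene HY1 and the phytochromobilin synthase gene HY2 overlapped, with changes of -0.10 and -0.09.

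Of the 34 genes, the 3 tested for chlorophyll breakdown were negative in Fe-deficient IMA1 OE roots and below EYFP OE on full medium. The backgrounds over all tested genes were 55.2% negative and 21.6% below. Breakdown genes outside the 34 did not all follow. Their changes were 0.08 for NOL, 0.04 for TIC55, -0.0008 for PPH, -0.05 for NYE2, -0.09 for NYE1 and -0.24 for ACD2. NYC1 (AT4G13250, chr4:7684156-7687006), a chlorophyll b reductase that starts the breakdown of chlorophyll b, had 4.53 and 5.44 in IMA1 OE, against 9.76 and 8.59 in EYFP OE. The change was -0.77 (SE 0.12, limma adjusted p 0.102), the lowest adjusted p among the 34 genes in that comparison. PAO (AT3G44880), which opens the chlorophyll ring, had 1.99 and 2.32 in IMA1 OE, against 2.69 and 3.40 in EYFP OE, a change of -0.35 (SE 0.15). HCAR, which reduces hydroxymethyl chlorophyll back to chlorophyll a, had 1.83 and 2.04 in IMA1 OE, against 2.11 and 2.89 in EYFP OE, a change of -0.25 (SE 0.16).

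Other genes of the pathway also had mostly negative changes in these roots. Of 23 further tetrapyrrole genes, 18 were tested in roots on Fe-deficient medium, 14 had a negative change, none passed the adjusted threshold and 6 had an unadjusted p under 0.05, all 6 negative. Over all tested genes 55.2% had a negative change, 0.920% were called, 9.14% had an unadjusted p under 0.05 and 4.09% had such a p with a negative change. The median change of the 18 genes was -0.09. Among those 6 were CHLP, which makes the phytol tail of chlorophyll, with 25.34 and 33.24 in IMA1 OE, against 39.60 and 42.94 in EYFP OE, and BCM1, a scaffold of Mg chelatase, with 4.96 and 6.16 in IMA1 OE, against 7.49 and 9.15 in EYFP OE. The others were LCAA, a cyclase subunit, LIL3.2, HO2 and ACD2. GLK2, a transcription factor that promotes chloroplast genes, had 5.56 and 5.87 in IMA1 OE, against 9.05 and 6.90 in EYFP OE, a change of -0.41 (SE 0.14, limma adjusted p 0.473). Of 10 regulators of the pathway 7 were tested, 4 with a negative and 3 with a positive change, and none passed the adjusted threshold. IMA1 OE lay below EYFP OE for GLK2, PIF3 and GUN1 (background 21.6%) and above for PIF1 and FAR1 (background 17.8%). PIF1, a repressor of chlorophyll synthesis in the dark, had 1.36 and 1.32 in IMA1 OE, against 1.06 and 0.81 in EYFP OE, a change of 0.28 (SE 0.16, limma adjusted p 0.697).

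Markers of green tissue differed between the same libraries. All 5, RBCS1A, RCA, CAB3, LHCA1 and LHCA3, lay below EYFP OE in IMA1 OE roots on Fe-deficient medium (background 21.6%). Their sum was 108.9 to 175.0 in IMA1 OE and 240.8 to 247.8 in EYFP OE. CAB3 had 2.71 and 6.59 in IMA1 OE, against 15.08 and 9.63 in EYFP OE, a change of -1.30 (SE 0.38, limma adjusted p 0.379). The 5 also lay below EYFP OE on full medium (background 16.2%), with a sum of 129.5 to 207.5 in IMA1 OE and 241.5 to 248.7 in EYFP OE. Their part in the values of the chlorophyll genes was not tested. In these whole-organ samples, fewer cells of a type and less RNA per cell cannot be told apart.

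With both lines on full medium, where the medium did not differ, the root differences were smaller. Of 32 tested genes, 27 had a negative change and 5 a positive one, with a median of -0.09 against -0.01 over all tested genes, of which 53.9% were negative. IMA1 OE lay below EYFP OE for 3 genes, HEMA1, CAO and NYC1, and above for HEMA2, against backgrounds of 16.2% below and 13.8% above. The median was -0.02 without IMA1 OE replicate 1, -0.18 without IMA1 OE replicate 2, -0.15 without EYFP OE replicate 1 and -0.01 without EYFP OE replicate 2. CAO had 3.90 and 4.53 in IMA1 OE roots on full medium, against 5.67 and 5.34 in EYFP OE roots, a change of -0.32 (SE 0.11, limma adjusted p 1). HEMA1 had 31.70 and 34.31 in IMA1 OE, against 36.69 and 37.52 in EYFP OE, a change of -0.17 (SE 0.07). NYC1 had 7.59 and 7.95 in IMA1 OE, against 9.94 and 8.77 in EYFP OE, a change of -0.24 (SE 0.10). HEMA2 had 13.37 and 12.10 in IMA1 OE, against 11.25 and 11.78 in EYFP OE, a change of 0.13 (SE 0.09). GUN4, with 3.21 and 5.86 in IMA1 OE and 7.14 and 5.51 in EYFP OE, overlapped.

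Values of IMA1 OE roots on the 2 media stand in separately normalized tables that share their EYFP OE libraries, so they are set side by side without a test. The change against EYFP OE was lower on Fe-deficient than on full medium for 25 of 32 genes, with a median difference of -0.13, against 52.0% of all tested genes. The median difference was -0.04 without IMA1 OE replicate 1 on Fe-deficient medium and -0.03 without IMA1 OE replicate 2 on full medium. IMA1 OE on Fe-deficient medium lay below IMA1 OE on full medium for 10 of the 32 genes and above for 4, where the backgrounds were 19.0% and 12.7%. The largest differences in the negative direction were those of GUN4 with -0.56, NYC1 with -0.53 and CHLH with -0.48, of which CHLH overlapped between the media. CAO, in contrast, averaged 4.08 on Fe-deficient and 4.21 on full medium in IMA1 OE roots. In rosettes the same difference was negative for 7 of 32 genes, against 49.1% of all tested genes, with a median of 0.04 and a range of -0.09 to 0.11. There IMA1 OE on Fe-deficient medium lay above IMA1 OE on full medium for CHLD alone and below it for none, where the backgrounds were 8.81% and 12.6%. The rosette median was -0.05 without IMA1 OE replicate 1 on full medium and 0.15 without IMA1 OE replicate 2 on full medium.

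In rosettes 1 of the 32 tested genes, FC1, had an unadjusted p under 0.05 on each medium. It had 36.38 and 40.63 in IMA1 OE rosettes on Fe-deficient medium, against 28.00 and 27.17 in EYFP OE rosettes, a change of 0.46 (SE 0.11, limma adjusted p 0.773). On full medium it had 36.31 and 39.37 in IMA1 OE, against 28.27 and 27.44 in EYFP OE, a change of 0.43 (SE 0.12, limma adjusted p 0.642). All 4 IMA1 OE libraries lay above the EYFP OE libraries, which both comparisons share. Over all tested genes 3.41% had such a p with a positive change on Fe-deficient and 3.93% on full medium, so 1 gene of 32 is no more than the background. FC1 was singled out after its values were seen in these rosettes, though its family is described in full. FC2 had 74.04 and 57.84 in IMA1 OE rosettes on Fe-deficient medium, against 83.67 and 60.61 in EYFP OE rosettes, so the groups overlapped. The FC1 share of the ferrochelatase sum was 32.9% and 41.3% in IMA1 OE rosettes on Fe-deficient medium, 34.9% and 39.8% in IMA1 OE rosettes on full medium and 25.1% and 31.0% in EYFP OE rosettes. In the annotation FC1 (chr5:9096451-9099185, plus strand) overlaps AT5G26038 on the same strand and AT5G26040 on the opposite strand. The limit given for GUN4 applies to AT5G26040. Counting by strand would not set reads of AT5G26038 apart from those of FC1 in the shared stretch.

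**Figure D3:**
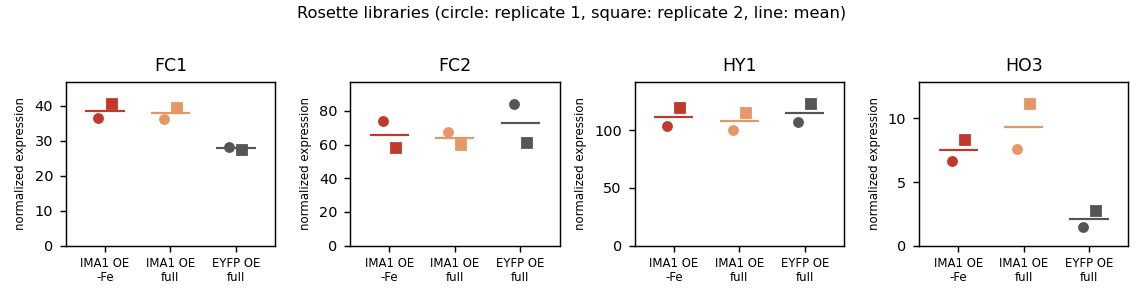
Normalized expression of ferrochelatase and heme oxygenase genes in every rosette library; circles are replicate 1, squares replicate 2 and lines the group means, and the Fe-deficient group comes from a separately normalized table whose columns are headed as grown with Fe. FC1 is between 36.31 and 40.63 in the 4 IMA1 OE libraries and below 30 in EYFP OE, while FC2 and HY1 overlap between the lines.

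Of the 23 further tetrapyrrole genes, 20 were tested in rosettes, with 12 negative and 8 positive changes on each medium. The background share of negative changes was 56.8% on Fe-deficient and 58.5% on full medium. None of the 20 passed the adjusted threshold, and on each medium 1, HO3, had an unadjusted p under 0.05, where the backgrounds were 5.17% and 5.43%. HO3 (AT1G69720), a heme oxygenase gene of low expression, had 6.67 and 8.32 in IMA1 OE rosettes on Fe-deficient medium, against 1.43 and 2.67 in EYFP OE rosettes, a change of 1.50 (SE 0.25, limma adjusted p 0.648). On full medium it had 7.56 and 11.18 in IMA1 OE, against 1.44 and 2.70 in EYFP OE, a change of 1.77 (SE 0.28, limma adjusted p 0.280). HO3 overlaps AT1G69730 on the opposite strand in the annotation, so reads of the neighbour cannot be told apart from its own here, and it was listed at 0.01 in every root library on Fe-deficient medium. HO2, a related gene, overlapped between the lines, with changes of -0.07 on Fe-deficient and -0.13 on full medium. HY1, the main heme oxygenase gene, had 103.78 and 118.67 in IMA1 OE rosettes on Fe-deficient medium, against 105.99 and 122.08 in EYFP OE rosettes. HY2, which acts after it, had 10.96 and 12.58 in IMA1 OE, against 14.07 and 14.12 in EYFP OE, a change of -0.24 (SE 0.12, limma adjusted p 0.994).

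Apart from FC1, changes of the tested genes in rosettes spanned -0.40 (CHLI2) to 0.35 (HEMA1) on Fe-deficient medium. On full medium they spanned -0.44 (CHLI2) to 0.42 (HEMA1). CHLI2 made up 13.1% and 15.6% of the CHLI sum in IMA1 OE rosettes on Fe-deficient medium, against 16.8% and 17.0% in EYFP OE rosettes. On each medium 22 of 32 tested genes had a negative change and 10 a positive one, with medians of -0.09 on Fe-deficient and -0.11 on full medium, against -0.03 over all tested genes on each, of which 56.8% and 58.5% were negative. IMA1 OE lay below EYFP OE for 10 genes on Fe-deficient medium (background 19.5%) and for 9 on full medium (background 18.5%), and above for FC1 alone on each (backgrounds 13.8% and 13.1%). The common trunk had 8 of 8 genes negative on both media, with IMA1 OE below for 5 on Fe-deficient and 4 on full medium. Its widest gap was at HEMD (uroporphyrinogen III synthase), with 35.25 and 37.82 in IMA1 OE rosettes on Fe-deficient medium, against 43.54 and 43.59 in EYFP OE rosettes, a change of -0.25 (SE 0.11, limma adjusted p 0.990). GSA2 had 131.81 and 158.31 in IMA1 OE, against 171.51 and 179.05 in EYFP OE, a change of -0.28 (SE 0.14). The GSA2 share of the GSA sum was 55.2% and 57.0% in IMA1 OE, against 57.4% and 58.0% in EYFP OE. On Fe-deficient medium the median was -0.04 without IMA1 OE replicate 1, -0.14 without EYFP OE replicate 1 and -0.04 without EYFP OE replicate 2. On full medium it was -0.05 without IMA1 OE replicate 1, -0.16 without IMA1 OE replicate 2, -0.21 without EYFP OE replicate 1 and -0.05 without EYFP OE replicate 2.

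Of the 7 genes listed above as lower in Fe-deficient roots, all but DVR overlapped between the lines in rosettes. In the whole chlorophyll branch, IMA1 OE rosettes lay below EYFP OE rosettes for 2 of 12 tested genes on each medium (backgrounds 19.5% on Fe-deficient and 18.5% on full medium). GUN4 had 114.30 and 153.81 in IMA1 OE rosettes on Fe-deficient medium, against 91.71 and 160.31 in EYFP OE rosettes, a change of 0.13 (SE 0.32). DVR had 105.82 and 105.54 in IMA1 OE, against 120.09 and 123.95 in EYFP OE, a change of -0.21 (SE 0.11). The root change was set against the rosette change in a fit over 8 libraries, each change formed within its own tables. None of 33 tested genes passed the adjusted threshold, where limma called 0.313% of all tested genes on Fe-deficient and 0.0189% on full medium. On Fe-deficient medium the root change of GUN4 was lower than its rosette change by 1.13 (root minus rosette -1.13, SE 0.41, limma adjusted p 0.622) and that of FC1 by 0.45 (root minus rosette -0.45, SE 0.14, limma adjusted p 0.499). Without EYFP OE rosette replicate 1 the difference for GUN4 was -0.73. On full medium the difference for FC1 was -0.33 (SE 0.13, limma adjusted p 1). These were the only genes of the 34 with an unadjusted p under 0.05 in that fit, where the backgrounds were 6.76% and 4.32%.

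The rosette libraries differed more between replicates than between lines at several steps. HEMA1 was 244.91 in replicate 1 and 326.35 in replicate 2 of IMA1 OE rosettes on Fe-deficient medium, 243.02 and 362.82 in IMA1 OE rosettes on full medium, and 142.99 and 345.77 in EYFP OE rosettes. CAO was 98.12 and 168.37 in the first of these groups, 88.08 and 177.32 in the second, and 69.84 and 172.89 in EYFP OE. HCAR went the other way, with 34.57 and 20.35, 35.38 and 17.30, and 41.73 and 23.88 in the same order of groups and replicates. Of the 32 genes, replicate 2 lay above replicate 1 in all 3 rosette groups for 18 and below it for 5, against 24.5% and 25.1% of all tested genes. In roots the numbers were 17 and 2, against 21.3% and 19.4%.

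Genes of the circadian clock differed between the same rosette libraries. CCA1, a clock gene that peaks in the morning, was 38.92 and 66.12 in IMA1 OE rosettes on Fe-deficient medium, 31.58 and 78.33 in IMA1 OE rosettes on full medium and 17.07 and 78.07 in EYFP OE rosettes, replicate 1 first. TOC1, which peaks in the evening, was 37.43 and 19.77, 43.51 and 17.10, and 41.59 and 14.61 in the same order. The part of this difference in the values of the chlorophyll genes was not tested. The standard error of the change in rosettes on full medium was 0.54 for CAO and 0.47 for HEMA1, against 0.12 for FC1, whose EYFP OE replicates were 28.27 and 27.44.

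**Figure D4:**
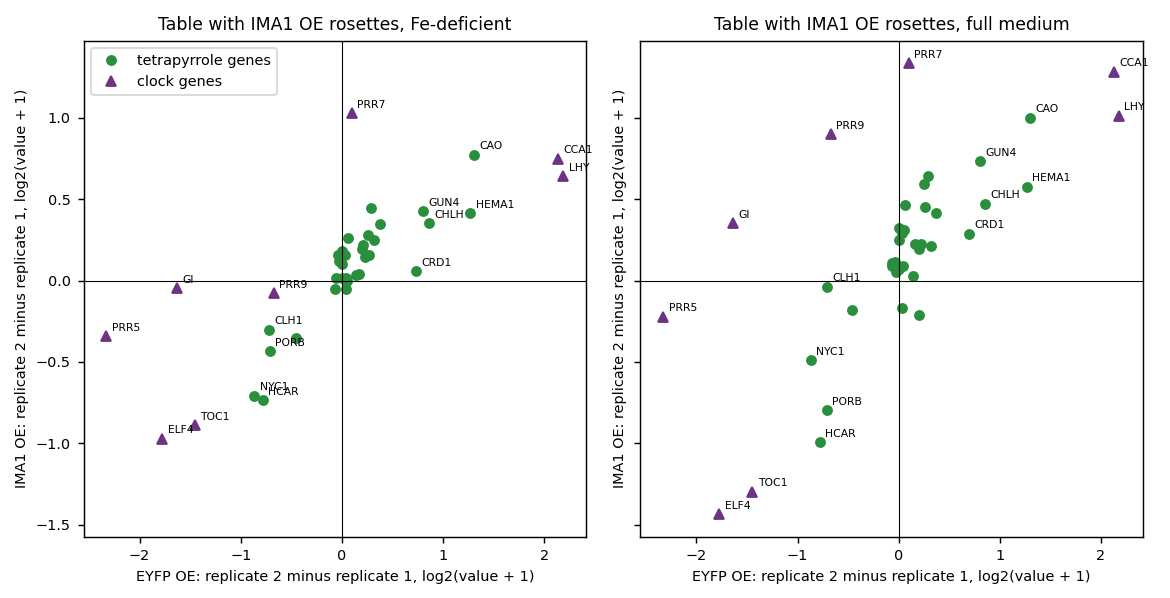
Difference between replicate 2 and replicate 1 on the log2(value + 1) scale in EYFP OE rosettes (horizontal) and in IMA1 OE rosettes (vertical), left with IMA1 OE on Fe-deficient and right on full medium; each point is a gene, circles the tetrapyrrole genes and triangles 8 clock genes. CAO, HEMA1, GUN4, CHLH and CRD1 lie in the upper right of both panels with CCA1 and LHY, and NYC1, HCAR and PORB in the lower left with TOC1 and ELF4.

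The levels of the 34 genes by tissue are a description, since rosette and root tables were normalized separately. In EYFP OE on full medium, rosette libraries lay above root libraries for 30 of the 34, below for 2 and overlapping for 2, where 25.1% of all tested genes lay above and 64.8% below. The 34 include PORA, which was below the minimum for testing and so is not in those shares. All 13 genes of the chlorophyll branch were higher in rosettes, with ratios of group means of 9.27 to 47.9 and a median of 20.2. Among the 13, PORA had means of only 0.425 in rosettes and 0.01 in roots. CRD1 was the most abundant of the 34 in rosettes, at 829.70 and 1342.35, against 37.98 and 42.38 in roots. PORC had 205.52 and 211.47 in rosettes, against 3.59 and 5.12 in roots. CLH1, a chlorophyllase gene, had 75.97 and 45.92 in rosettes, and was at 0.09 and 0.01 in roots. The common trunk had ratios of 1.64 for PPOX2 to 10.7 for HEME1.

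The 4 exceptions were FC1, HEMA3, HEMA2 and HY1. FC1 had 28.27 and 27.44 in rosettes, against 67.52 and 60.90 in roots, while FC2 had 84.43 and 61.07 in rosettes, against 8.42 and 8.54 in roots. HEMA3 was 0.23 and 0.22 in rosettes, against 1.82 and 1.60 in roots. HEMA2 had 11.70 and 13.62 in rosettes, against 11.25 and 11.78 in roots, and HY1 had 106.75 and 122.99 in rosettes, against 109.18 and 94.18 in roots, so neither differed beyond the spread of the libraries. Within the GSA pair, GSA2 made up 57.3% and 57.9% of the sum in EYFP OE rosettes, against 26.4% and 30.7% in EYFP OE roots. Within the POR family, PORB made up 76.8% and 66.3% of the sum in EYFP OE rosettes, against 88.9% and 90.6% in EYFP OE roots, and PORA stayed under 0.6 in every EYFP OE library.

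**Figure D5:**
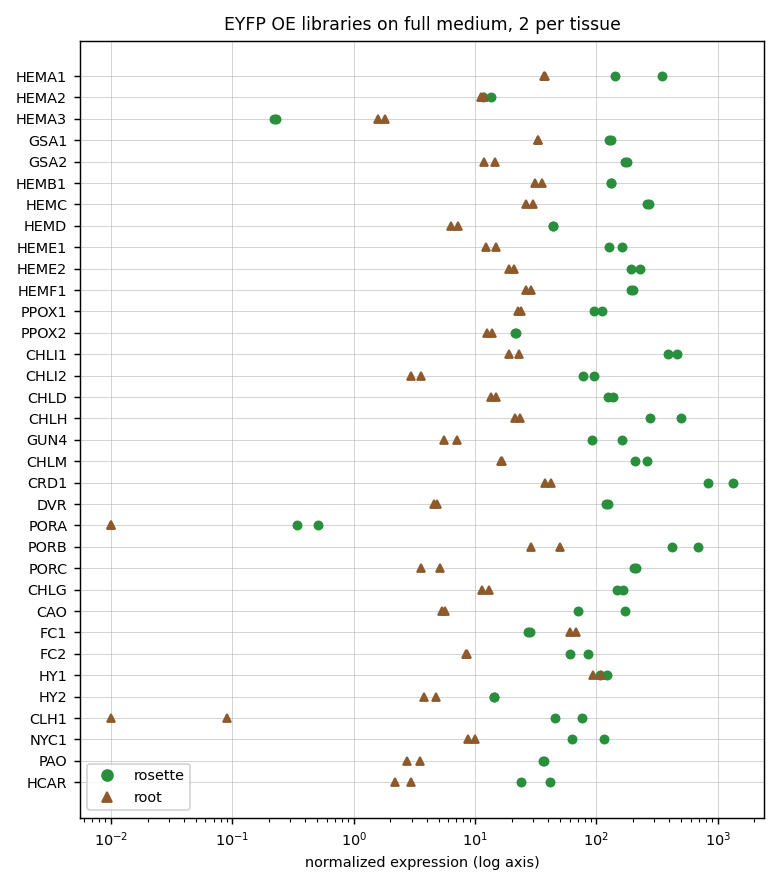
Normalized expression of the 34 genes in the 2 EYFP OE rosette libraries (circles) and the 2 EYFP OE root libraries (triangles) on full medium, on a log axis, ordered by role. Rosette points lie right of root points for 30 genes, and FC1 and HEMA3 show the opposite order.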

How the data were processed

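Polyadenylated RNA of 12 libraries in 6 groups of 2 was sequenced from a stranded TruSeq mRNA kit, per the labels' protocols, with RIN scores of 9.8 to 10 for roots and 8.3 to 8.7 for leaves. The submitters' processing notes name TAIR10, bcl2fastq 1.8.4, Trimmomatic 0.35, Bowtie2 2.0.6, edgeR 3.12.1 and limma 3.26.9, without a role for each. The authors deposited 4 tables, each of 4 libraries and 33607 genes, with a normalized expression signal per library, a Z-test p-value and a log2 ratio per gene, per the file headers. The unit of the signal and the read depth are not given in the sources used here, so no counting intervals are given. Some of the highest values are identical across libraries, as for RCA in all 4 libraries of the rosette full-medium table, which sets such a gene's difference to 0.

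For the changes, log2(value + 1) was modelled with limma (version 3.58.1, under R 4.3.3), whose empirical Bayes step used an intensity trend, over genes that reached 1 in 2 or more libraries, with adjustment over all of them. The script was checked on simulated data. The members, the lists of further tetrapyrrole, regulator, clock, senescence, ferritin and marker genes, and the tests were chosen with earlier results of these data known. Every library's value is given for members past the adjusted threshold, for those with groups apart and a log2 change of at least 1, and for isoform families, and members with an unadjusted p under 0.05 were added after their values were seen. Coordinates and sequences come from TAIR10.1 with its RefSeq annotation, in which all 34 locus identifiers matched. The alternatives were a pseudocount of 0.1, no filter, no trend, median centring, a replicate block and each library left out.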

Additional observations from a re-analysis of the deposited data

How the results depend on the processing

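The 14 changes and tissue differences of the genes singled out kept their direction in all 138 alternative fits, and none passed the adjusted threshold; limma adjusted p spanned 0.0839 to 0.641 for HEMA1, 0.0873 to 0.498 for NYC1, 0.122 to 0.630 for GUN4 and 0.0595 to 0.726 for CRD1 in Fe-deficient roots, and 0.253 to 1 for FC1 in rosettes on Fe-deficient medium. No member was called under any alternative except 1 with the replicate block in roots on Fe-deficient medium, PORB, with a change of -0.52 (SE 0.07, limma adjusted p 0.0449). The replicate differences of the 2 lines correlated with r of 0.24 to 0.45 over genes, but with 2 pairs per table, and as the labels do not say what a number marks, the block is an alternative only. The number of genes called over the whole table moved more. With the replicate block it was 16 in roots on full medium, 323 in Fe-deficient roots, 60 in rosettes on full medium and 0 for the tissue difference on full medium. Without a filter on low values it was 141 in roots on full medium, 113 and 130 in rosettes on full and Fe-deficient medium, and 133 and 164 for the tissue differences on full and Fe-deficient medium. Without the intensity trend 120 genes were called in Fe-deficient roots. With a pseudocount of 0.1 it was 1 in rosettes on full medium and 33 for the tissue difference on Fe-deficient medium. Leaving out 1 library gave 0 to 4 genes in roots on full medium, 55 to 80 in Fe-deficient roots, 0 to 10 in rosettes on full medium, 0 to 4 in rosettes on Fe-deficient medium, 0 to 17 for the tissue difference on full medium and 30 to 94 for that on Fe-deficient medium. The cause of these shifts was not tested. A group left with 1 library is assumed to vary like the others. The values carry no read depth, so the counting error behind low values such as those of GUN4 in roots is unknown.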

Other observations

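Senescence and Fe storage genes were also measured in these rosettes. Of 5 senescence genes, 4 were tested in rosettes, all 4 had a positive change on both media and none passed the adjusted threshold. Over all tested genes 56.8% had a negative change on Fe-deficient and 58.5% on full medium. SAG13, a leaf senescence marker, had 13.55 and 7.79 in IMA1 OE rosettes on Fe-deficient medium and 29.80 and 12.38 on full medium, against 0.45 and 2.25 in EYFP OE rosettes, with limma adjusted p-values of 0.648 and 0.316. NAP, a transcription factor that promotes leaf senescence and chlorophyll loss, had a change of 1.33 on Fe-deficient and 1.46 on full medium. In the same rosettes the 4 chlorophyll breakdown genes overlapped between the lines, with changes of -0.23 and -0.34 for HCAR, -0.19 and -0.10 for CLH1, 0.01 and 0.02 for NYC1 and -0.03 and 0.03 for PAO on Fe-deficient and full medium. The ferritin gene FER3 had 202.36 and 215.11 in IMA1 OE rosettes on full medium, against 70.87 and 87.07 in EYFP OE rosettes (change 1.40, SE 0.16, limma adjusted p 0.165). All 3 ferritin genes lay above EYFP OE on that medium (background 13.1%). With IMA1 OE on Fe-deficient medium all 3 overlapped with EYFP OE, where the backgrounds were 13.8% above and 19.5% below.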
